A study of Mus musculus with 6 samples.

Results

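In whole mouse skin, 10 genes that act in the hair matrix were followed: the transcription factor genes Msx1, Msx2, Dlx3, Hoxc13, Foxn1, Gata3 and Ovol1, and the signal genes Shh, Bmp2 and Bmp4. They were chosen by symbol, and all 10 were found among the 54146 Ensembl gene IDs of each library and passed the filter on low values, which kept 28389 genes. Skin RNA was sequenced in 6 libraries, 3 from control mice (CON) and 3 from mice under chronic restraint stress (CRS), a model of psychological stress in which the animal is repeatedly confined. Skin was taken once the stress had run for 12 weeks. Strain, sex, age, body site and hair cycle stage of the mice are not given in these sources, and no genetic change was described for either group. The comparison asks how prolonged restraint bears on transcripts of the skin.

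The hair matrix is the pool of dividing epithelial cells at the base of a growing follicle, whose daughters form the hair shaft and the inner root sheath around it. Shh, a secreted ligand, is made by matrix cells and acts through the receptor Ptch1 and the transcription factor Gli1. Bmp ligands act on matrix cells through receptors such as Bmpr1a to promote differentiation, and the antagonist Noggin, encoded by Nog, holds them back. Msx2, Foxn1 and Hoxc13 are needed for the keratin programme of the shaft in mice, and Gata3 for the inner root sheath.

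Values are FPKM, the fragments per kilobase of exon scaled to library depth, as the authors deposited them, so levels can be compared between genes per exon length. Interfollicular epidermis markers summed to 1989 to 3051 FPKM in the 6 libraries, so all held skin epithelium. Depth recovered from the values ran from 13.3 to 25.7 M fragments per library (M, mega), and the 10 genes rested on 59 to 12712 fragments each. CON replicate 1 stood apart. Mitochondrially encoded and skeletal muscle genes held 16.2% of its fragments, against 1.78% to 3.76% elsewhere. That library also had Xist at 2.80 FPKM, while Xist was at most 0.168 FPKM in the other libraries. The Y-linked gene Ddx3y was found in all 6 libraries, at 8.7 to 32.7 FPKM, and at 22.5 FPKM in CON replicate 1. Some results that rest on CON replicate 1 are also given without it. Others, such as those of single hair shaft and inner root sheath genes, are not. CRS replicate 2 also stood apart, with Pearson r of 0.695 to 0.853 across genes to the other libraries, where the other pairs lay between 0.819 and 0.960. In bulk skin, fewer follicle cells and less RNA per cell cannot be told apart.

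Across all genes tested, limma called 0 genes higher and 0 genes lower in CRS at an adjusted p under 0.05 (0.00% of those tested in each direction), and 261 and 462 at an unadjusted p under 0.05. These unadjusted counts were 0.919% and 1.63% of the genes tested, and the second included Msx1. For each of the 10 genes limma gave an adjusted p of 0.9999. Across the whole table fold changes centred on a median of -0.20 (log2), with 67.8% of genes under 0 and 32.2% above. Of the 10 genes, 7 had a value under 0 and 3 above 0, a share of lower values near that background, and their median was -0.41. It lay between -0.73 without CRS replicate 2 and -0.20 without CRS replicate 3. Median-ratio scaling, which divides each library by the median ratio of its genes to their geometric mean over the 6 libraries, brought the median of all genes to 0.0069 and the share under 0 to 49.4%, with 50.6% above. The 10 genes then stood again at 7 under 0 and 3 above 0, with a median of -0.17. Without CON replicate 1 and CRS replicate 2, all 10 were under 0 (61.1% of all genes tested), with a median of -0.77 and a smallest adjusted p of 0.305.

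**Figure D1:**
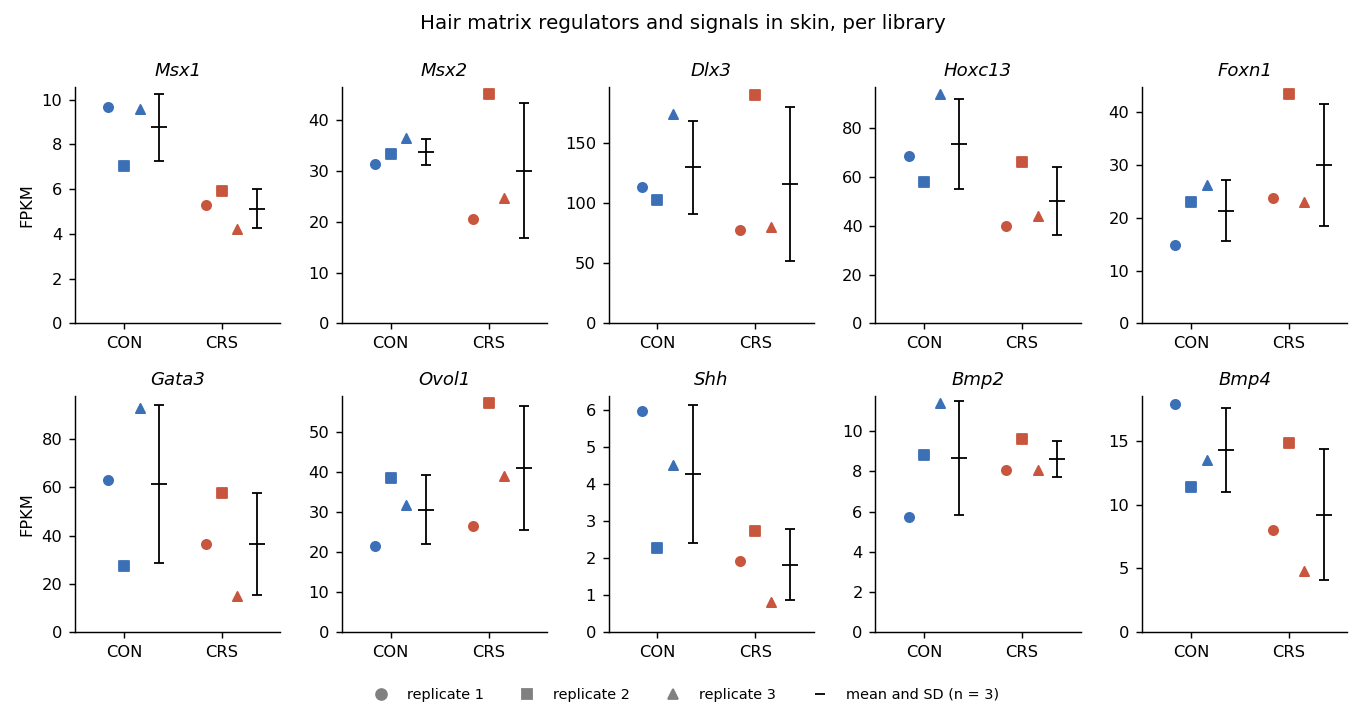
FPKM of the 10 genes in each library (vertical axis from 0), CON in blue and CRS in red, with a marker shape for each replicate and the group mean ± SD (n = 3) in black. Msx1 is the gene whose groups are apart, at 7.03 to 9.68 FPKM for CON against 4.20 to 5.91 FPKM for CRS, while CRS replicate 2, the red square, holds the highest value of Msx2, Dlx3, Foxn1 and Ovol1.

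By level, Dlx3 came first in all 6 libraries, with a mean of 122.8 FPKM. It was followed by Hoxc13 at 61.9, Gata3 at 48.9, Ovol1 at 35.8, Msx2 at 31.9 and Foxn1 at 25.7 FPKM. The signals were lower, Bmp4 at 11.7 and Bmp2 at 8.62 FPKM, with Msx1 at 6.95 FPKM, and Shh was the lowest of the 10 in 5 of 6 libraries, with a mean of 3.04 FPKM. The ranges of all neighbours in this order overlapped across libraries. Within libraries, Dlx3 exceeded Hoxc13, Hoxc13 exceeded Gata3 and Msx1 exceeded Shh in all 6, while Gata3 exceeded Ovol1 in 4. The highest library was CRS replicate 2 for Msx2, Foxn1, Dlx3 and Ovol1, as for 29.2% of all genes tested. After median-ratio scaling it was so for Msx2 and Foxn1, and for 22.1% of all genes.

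Msx1, a homeodomain repressor expressed in the matrix, stood at 9.68, 7.03 and 9.57 FPKM in CON replicates 1 to 3 and at 5.27, 5.91 and 4.20 FPKM in CRS. Every CRS library lay below every CON library, as it did for 5.19% of all genes tested. The means were 8.76 ± 1.5 and 5.13 ± 0.86 FPKM (SD, n = 3). On the log2 scale the difference was -0.76 (SE 0.31, 95% interval -1.47 to -0.048), or -0.56 relative to all genes, with an unadjusted limma p of 0.0392. The exact two-sided permutation p was 0.1, the smallest that 3 against 3 libraries allow. After median-ratio scaling the groups remained apart, at 6.522 to 8.896 for CON and 4.818 to 6.404 for CRS, as did 2.63% of all genes in that direction. The log2 fold change was then -0.53, with an unadjusted limma p of 0.0743. Of 18 alternative fits, 9 gave Msx1 an unadjusted p under 0.05.

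Msx2, its paralogue and an activator of the Foxn1 gene in the mouse follicle, stood at 31.4, 33.3 and 36.5 FPKM in CON and at 20.5, 45.1 and 24.6 FPKM in CRS. The CON values were close together, and the CRS values lay on both sides of them. Its log2 fold change came to -0.25 (SE 0.36, 95% interval -1.06 to 0.57), and lay between -0.58 without CRS replicate 2 and -0.016 without CRS replicate 1. After median-ratio scaling it was -0.014. The ratio of Msx1 to Msx2 within a library does not depend on how libraries are scaled. It was 0.308, 0.211 and 0.262 in CON and 0.257, 0.131 and 0.171 in CRS. The log2 ratio differed by -0.51 (exact permutation p = 0.2, 0.4 adjusted over 2 ratios), and the groups overlapped. With 1 library left out, its difference lay between -0.77 without CRS replicate 1 and -0.28 without CRS replicate 2. Without both CON replicate 1 and CRS replicate 2 it was -0.16.

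The 250 bases before the RefSeq start of Msx1, Msx2 and Foxn1, a target of Msx2 in mice, are shown. They were chosen because the Msx genes and Foxn1 had fold changes of opposite sign, though that of Msx2 was -0.014 after median-ratio scaling. Msx1 was apart between groups on both scales, Foxn1 after scaling and Msx2 on neither. The windows come from RefSeq on GRCm38.p6, on the minus strand, at chr5:37824586-37824835, chr13:53472781-53473030 and chr11:78386609-78386858. The bases just after that start were found in a GENCODE M21 transcript for Msx2 and not for Msx1 or Foxn1, so for the latter the window is that of RefSeq's start alone. RefSeq windows matched 5 of the 10 genes by symbol, those of Msx1, Msx2, Foxn1, Gata3 and Bmp4. Capitals mark matches, on either strand, to the homeodomain core TAATT, the CCAAT box CCAAT, the GATA box AGATAA, the LEF/TCF core CTTTGA, the GC-type Smad element GGCGCC, the GLI site GACCACCCA or the TATA box TATAAA.
Msx1: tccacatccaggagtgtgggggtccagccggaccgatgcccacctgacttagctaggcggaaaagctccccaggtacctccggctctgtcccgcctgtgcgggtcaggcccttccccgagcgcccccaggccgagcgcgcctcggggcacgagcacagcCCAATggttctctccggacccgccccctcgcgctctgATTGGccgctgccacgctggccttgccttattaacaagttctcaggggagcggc
Msx2: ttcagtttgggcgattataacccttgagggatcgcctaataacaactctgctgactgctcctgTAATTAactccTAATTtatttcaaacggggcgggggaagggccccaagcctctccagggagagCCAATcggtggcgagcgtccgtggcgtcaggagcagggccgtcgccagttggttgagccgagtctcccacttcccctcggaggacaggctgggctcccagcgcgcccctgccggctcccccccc
Foxn1: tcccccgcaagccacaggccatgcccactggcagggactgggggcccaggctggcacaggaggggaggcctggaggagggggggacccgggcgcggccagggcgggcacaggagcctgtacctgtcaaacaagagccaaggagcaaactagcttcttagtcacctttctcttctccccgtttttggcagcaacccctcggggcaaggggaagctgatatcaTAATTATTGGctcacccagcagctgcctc
The homeodomain core was found in the windows of Msx2 and Foxn1 and not in that of Msx1, and 25.0% of all 32851 windows of this length hold it. In the Foxn1 window it overlaps a CCAAT box on the opposite strand. The CCAAT box was found in all 3 windows and in 33.8% of all windows. None of the 3 held the GATA box, the LEF/TCF core, the GC-type Smad element, the GLI site or the TATA box, which 9.99%, 13.8%, 9.59%, 0.225% and 12.4% of all windows hold. These are matches of letters, and no binding was measured.

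Dlx3, a homeodomain activator needed for hair formation in mice, stood at 113.2, 102.1 and 173.9 FPKM in CON and at 77.8, 189.5 and 80.4 FPKM in CRS. CRS replicates 1 and 3 lay below all CON libraries and CRS replicate 2 above them. Its log2 fold change came to -0.25 (SE 0.45, 95% interval -1.28 to 0.77), and lay between -0.67 without CRS replicate 2 and -0.022 without CON replicate 3. After median-ratio scaling it was -0.017. Hoxc13, which activates hair keratin genes, stood at 68.8, 58.1 and 94.1 FPKM in CON and at 40.1, 66.2 and 44.1 FPKM in CRS. Again CRS replicates 1 and 3 lay below all CON libraries, while CRS replicate 2 lay between CON replicates 2 and 1. The log2 fold change was -0.56 (SE 0.35, 95% interval -1.35 to 0.23), and it lay between -0.78 without CRS replicate 2 and -0.37 without CON replicate 3.

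Foxn1, the forkhead factor whose loss causes the nude phenotype of mice, had a fold change above 0. Those of the homeodomain genes were under 0, with Msx2 and Dlx3 close to 0 after median-ratio scaling. Foxn1 stood at 14.9, 22.9 and 26.2 FPKM in CON and at 23.8, 43.3 and 22.9 FPKM in CRS. The groups overlapped, CON replicate 1 being lowest and CRS replicate 2 highest. The log2 fold change was 0.46 (SE 0.37, 95% interval -0.39 to 1.31), or 0.66 relative to all genes (exact permutation p = 0.5). After median-ratio scaling the values were 13.1, 21.3 and 24.3 in CON and 28.9, 35.3 and 28.7 in CRS. On that scale every CRS library lay above every CON library, as for 3.97% of all genes (1.65% on the deposited values), and the log2 fold change was 0.70. Without CON replicate 1 and CRS replicate 2 together it was -0.070 on the deposited values.

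Ovol1, a zinc finger repressor of epidermal and follicle progenitor growth, followed the same order of extremes as Foxn1. It stood at 21.6, 38.5 and 31.7 FPKM in CON and at 26.4, 57.2 and 39.0 FPKM in CRS. CRS replicate 1 lay below CON replicates 2 and 3, so the groups overlapped. The fold change was 0.39 on the log2 scale (SE 0.38, 95% interval -0.49 to 1.26), and it turned to -0.12 without CON replicate 1 and CRS replicate 2. Fragments of Ovol1 may be shared with 2 annotated genes whose exons overlap its own on the opposite strand, since strand was not given for these libraries.

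Gata3, the factor of the inner root sheath lineage, varied most within the CON group. It stood at 63.2, 27.6 and 93.1 FPKM in CON and at 36.6, 57.5 and 15.2 FPKM in CRS. Its highest CON value was 3.37 times the lowest and its highest CRS value 3.79 times the lowest, with overlap between the groups. On the log2 scale the difference was -0.78 (SE 0.59, 95% interval -2.13 to 0.57), and it lay between -1.27 without CON replicate 2 and -0.25 without CRS replicate 3. Gata3 is also expressed by T cells. The 10 T cell markers summed to 12.6, 32.7 and 28.5 FPKM across the CON libraries and to 40.5, 24.4 and 27.9 FPKM across the CRS libraries, and all 10 had fold changes above 0, the opposite sign to that of Gata3, with 0 called. Without CON replicate 1, 7 of the 10 were above 0. Their part in the Gata3 value was not tested. The exons of Gata3 overlap those of 2 other annotated genes, 1 on each strand.

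**Figure D2:**
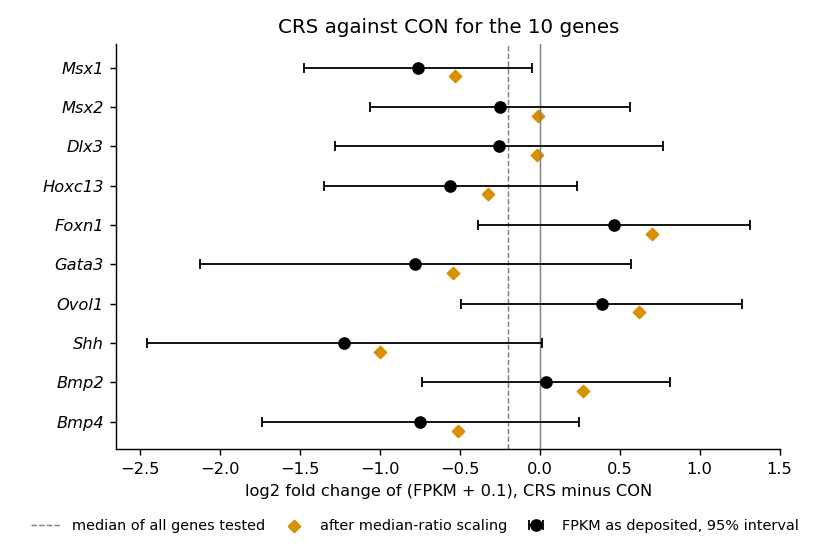
Log2 fold change of CRS against CON for each of the 10 genes on log2(FPKM + 0.1), with its 95% interval from limma (black), and the same after median-ratio scaling (orange diamonds). The interval of Msx1 ends at -0.048 and those of the other 9 genes include 0, and the dashed line marks the median of all genes at -0.20.

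Among the signals, Shh had the lowest fold change of the 10. It stood at 5.96, 2.27 and 4.52 FPKM in CON and at 1.92, 2.72 and 0.822 FPKM in CRS, from 321, 129 and 171 fragments and 105, 199 and 59 fragments. CRS replicates 1 and 3 lay below all CON libraries, and CRS replicate 2 lay above CON replicate 2. The means were 4.25 ± 1.86 and 1.82 ± 0.95 FPKM (SD, n = 3). On the log2 scale the difference was -1.22 (SE 0.54, 95% interval -2.46 to 0.016), or -1.02 relative to all genes, with an unadjusted limma p of 0.0524 (exact permutation p = 0.2). It lay between -1.61 without CON replicate 2 and -0.76 without CRS replicate 3. Exons of Shh overlap those of 2 annotated genes on the opposite strand.

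Genes on which Shh acts did not stand as far from 0, and a difference between their fold changes and that of Shh was not tested. Ptch1, the Shh receptor and itself a target of the pathway, stood at 5.98, 3.39 and 5.18 FPKM in CON and at 2.62, 7.98 and 1.89 FPKM in CRS. Gli1, another target, stood at 5.99, 4.25 and 5.44 FPKM in CON and at 3.75, 8.65 and 2.03 FPKM in CRS. For both genes CRS replicates 1 and 3 lay below all CON libraries and CRS replicate 2 above them. Their log2 fold changes were -0.45 (SE 0.54) and -0.34 (SE 0.51). Hhip, a decoy receptor induced by the pathway, averaged 0.85 ± 0.36 FPKM in the CON and 0.52 ± 0.49 FPKM in the CRS libraries (log2 fold change -0.84, SE 0.67), and Smo, the signal transducer, 12.4 ± 3.15 and 9.50 ± 5.38 FPKM (-0.48, SE 0.42).

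Of the 15 hedgehog pathway genes listed besides Shh, 14 passed the filter. Among them 13 had fold changes under 0 and 1 above 0, with a median of -0.36 beside -0.20 for all genes, and 0 were called in either direction. After median-ratio scaling the counts were 9 and 5 with a median of -0.13. Leaving out CRS replicate 3 put the median at -0.021, and leaving out CRS replicate 2 at -0.87. The FPKM of Ptch1 divided by that of Shh was 1.00, 1.49 and 1.15 in CON and 1.37, 2.94 and 2.30 in CRS, with the groups overlapping through CRS replicate 1. This ratio was chosen after the values were seen and was not tested.

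Bmp2 and Bmp4, related ligands that both signal through Bmpr1a, had fold changes of different size. Bmp4, made in follicle epithelium and dermal papilla, stood at 17.9, 11.4 and 13.5 FPKM in CON and at 8.03, 14.8 and 4.82 FPKM in CRS. CRS replicates 1 and 3 lay below all CON libraries. Its log2 fold change was -0.75 (SE 0.43, 95% interval -1.74 to 0.25), and it lay between -1.16 without CRS replicate 2 and -0.36 without CRS replicate 3. Bmp2, a ligand of matrix and shaft precursor cells, stood at 5.74, 8.83 and 11.4 FPKM in CON and at 8.06, 9.63 and 8.09 FPKM in CRS. All CRS values of Bmp2 lay within the CON range, and its log2 fold change was 0.039 (SE 0.34, 95% interval -0.74 to 0.81).

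The ratio of Bmp2 to Bmp4 within a library was 0.321, 0.775 and 0.842 in CON and 1.00, 0.649 and 1.68 in CRS. Bmp4 exceeded Bmp2 in every CON library and in CRS replicate 2. The log2 ratio was higher by 0.79 in CRS, but the groups overlapped (exact permutation p = 0.4, 0.4 adjusted over 2 ratios). Leaving out CON replicate 1 gave 0.35 and leaving out CRS replicate 2 gave 1.11. Exons of Bmp4 overlap those of an annotated gene on the opposite strand.

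**Figure D3:**
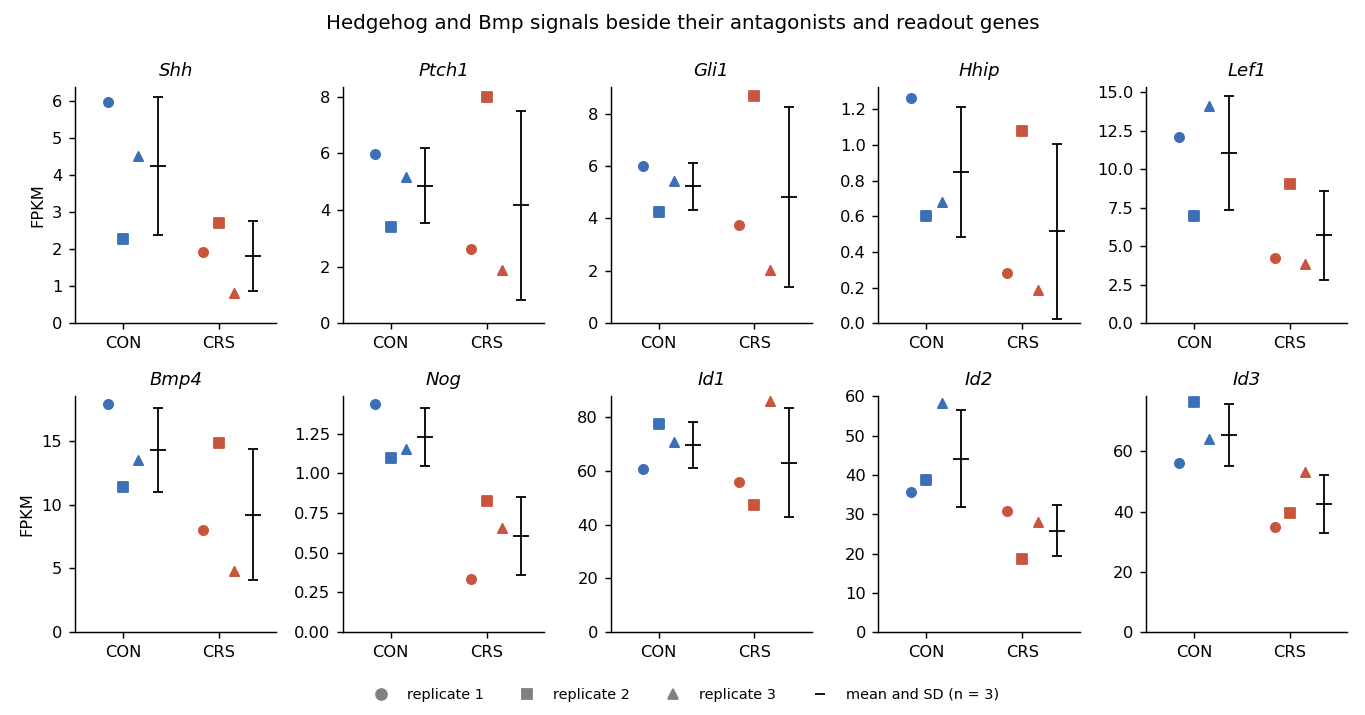
FPKM per library (vertical axis from 0) of Shh and Bmp4 beside receptor, readout and antagonist genes fixed for their pathways and the follicle factor Lef1. Group means ± SD (n = 3) are in black, and Bmpr1a, also a fixed readout, is not drawn. Nog, Id2 and Id3 have all CRS libraries below all CON libraries, while CRS replicate 2, the red square, is the highest library for Ptch1 and Gli1.

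Of the other Bmp pathway genes, Id2, Id3, Nog and Sostdc1 had CRS values that lay below all CON values, which were 2 of the 8 Smad and Id genes and 2 of the 14 antagonists, beside 5.19% of all genes tested, and 0 genes of these lists were called. Id2, an inhibitor of differentiation factors and a Bmp target, stood at 35.7, 38.6 and 58.2 FPKM in CON and at 30.8, 18.6 and 28.0 FPKM in CRS. The log2 fold change was -0.77 (SE 0.34, exact permutation p = 0.1). Id3, a target of the same kind, stood at 56.0, 76.3 and 64.1 FPKM in CON and at 34.9, 39.5 and 53.1 FPKM in CRS, with a log2 fold change of -0.63 (SE 0.31). After median-ratio scaling the groups of Id2 and Id3 overlapped, at -0.53 and -0.40. Id1, the third target fixed as a readout, was at -0.18 (SE 0.34) on the log2 scale and overlapped, with its highest value of 85.9 FPKM in CRS replicate 3. All 8 Smad and Id genes were under 0, with a median of -0.42 against -0.20 for all genes, and after median-ratio scaling 6 were under 0. The median was -0.25 without CRS replicate 1.

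Nog stood at 1.44, 1.10 and 1.15 FPKM in CON and at 0.337, 0.826 and 0.655 FPKM in CRS. It rested on few fragments, 46, 37 and 26 in CON and 11, 36 and 28 in CRS. Its groups were apart on both scales, as were those of 5.19% of all genes on the deposited and 2.63% on the scaled values in that direction, with a log2 fold change of -0.97 (SE 0.50, 95% interval -2.11 to 0.17; exact permutation p = 0.1). Grem1, another Bmp antagonist, lay the other way, with means of 1.76 ± 0.52 FPKM for CON and 3.15 ± 1.06 FPKM for CRS, a log2 fold change of 0.78 (SE 0.44), with overlap on the deposited values. After median-ratio scaling its groups were apart, as for 3.97% of all genes with higher values, at a log2 fold change of 1.01. Sostdc1, an antagonist named after its values were seen, was at -0.24 (SE 0.27) and overlapped after median-ratio scaling. The 14 antagonist genes were divided, 9 under 0 and 5 above, with a median of -0.027, and after median-ratio scaling 4 were under 0 and 10 above. With 1 library left out, the median lay between -0.27 (CON replicate 1) and 0.074 (CRS replicate 1). Without CON replicate 1 and CRS replicate 2, 12 were under 0, with a median of -0.42.

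The 6 Bmp receptors were all under 0, with a median of -0.16 against -0.20 for all genes, and 5 of 6 were above 0 after median-ratio scaling. Their median was 0.12 without CRS replicate 1 and -0.62 without CRS replicate 2. Bmpr1a, the type I receptor of matrix cells, had means of 27.3 ± 3.21 FPKM for CON and 27.2 ± 14.0 FPKM for CRS (log2 fold change -0.12, SE 0.39). Bmpr2 was at -0.20 (SE 0.38) and Acvr2b at -0.81 (SE 0.63) on the log2 scale. Of 9 other Bmp and Gdf ligands, 4 passed the filter, Bmp6 at 0.31 (SE 0.44) and Bmp8a at -0.63 (SE 0.57) having the lowest p.

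**Figure D4:**
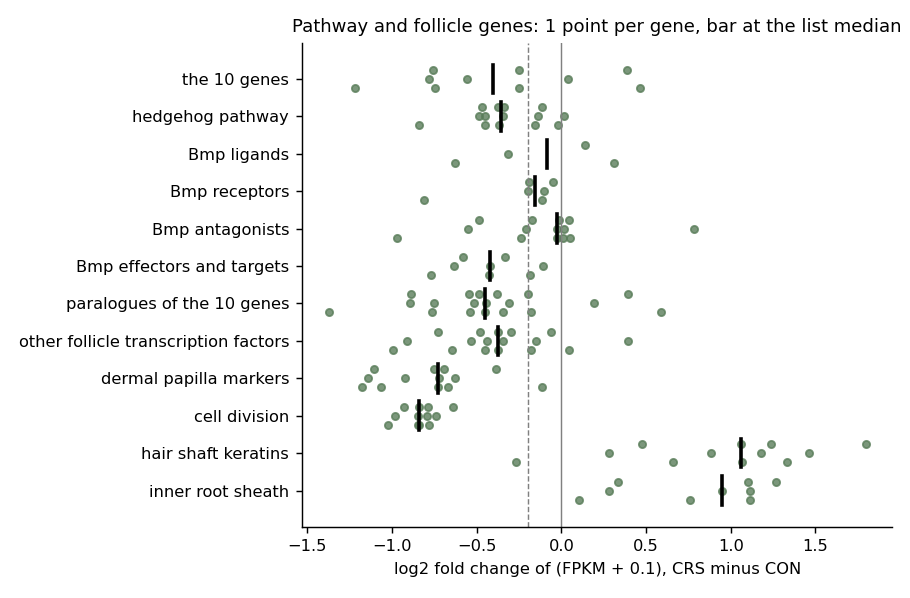
Log2 fold change of CRS against CON on log2(FPKM + 0.1), 1 point for each tested gene of a list and a bar at the list median, with the median of all genes at -0.20 as a dashed line. The medians of the 10 genes, the hedgehog pathway and the Bmp target list lie below the dashed line, at -0.41, -0.36 and -0.42. The medians of the hair shaft keratins and inner root sheath genes lie above 0, at 1.06 and 0.95, with 1 shaft keratin, Krt35, under 0.

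The paralogues of the 10 genes and other follicle transcription factors also lay mostly under 0, with 0 called. Of 27 paralogues 19 passed the filter, 16 being under 0 and 3 above, with a median of -0.45, and of -0.26 without CON replicate 3 and -0.28 without CON replicate 1. Dlx1 was at -1.37 (SE 0.64) on the log2 scale and overlapped. Groups were apart for 2 paralogues with lower (5.19% of all genes) and 1 with higher values in CRS (1.65%). Of these, Dlx4 averaged 7.73 ± 0.68 FPKM for CON and 5.38 ± 0.65 FPKM for CRS (-0.52, SE 0.29) and overlapped after median-ratio scaling. The others, Ovol2 at -0.54 (SE 0.46) and Gata6 at 0.59 (SE 0.45), are named after their values were seen. Of 17 other follicle factors tested, 15 were under 0, with a median of -0.38. The median was -0.11 without CRS replicate 3 and -0.70 without CON replicate 2. Lef1, the Wnt effector of the matrix, stood at 12.1, 6.96 and 14.1 FPKM in CON and at 4.23, 9.07 and 3.82 FPKM in CRS, a log2 fold change of -0.99 (SE 0.44). Sox21, a factor of the hair shaft cuticle, was at -0.91 (SE 0.40), and Foxq1, a target of Hoxc13 in mice, at -0.38 (SE 0.49).

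The keratin genes of the hair shaft, several of them targets of Hoxc13 or Foxn1, lay on the other side of 0. Of 12 tested, 11 were above 0, with a median of 1.06, and 0 were called. The groups were apart for 3 of the 12 with higher values in CRS (1.65% of all genes) and for 0 with lower values (5.19%). Krt84 stood at 5.83, 33.6 and 17.5 FPKM in CON and at 50.7, 49.6 and 58.3 FPKM in CRS, a log2 fold change of 1.80 (SE 0.57). Krt86 was at 1.46 (SE 0.63). Krt35, a keratin of the early shaft precursor and a Hoxc13 target, was the 1 gene under 0, with means of 270.5 ± 40.5 FPKM for CON and 233.6 ± 82.2 FPKM for CRS (-0.27, SE 0.42). The list median was 0.62 without CON replicate 1, where the summed keratins were lowest.

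Set side by side, the summed FPKM of the 12 shaft keratins were 2013, 6429 and 4083 in CON and 6054, 7369 and 11526 in CRS. Divided by the Hoxc13 value of the same library they were 29.3, 110.6 and 43.4 in CON and 151.0, 111.2 and 261.4 in CRS, so that the groups were apart by a narrow margin between CON replicate 2 and CRS replicate 2. Divided by Foxn1 they overlapped, at 135.2 to 280.4 in CON and 170.1 to 503.6 in CRS. Foxn1 divided by Hoxc13 was 0.217, 0.394 and 0.279 in CON and 0.594, 0.654 and 0.519 in CRS, with the groups apart. These ratios were chosen after the values were seen and were not tested.

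**Figure D5:**
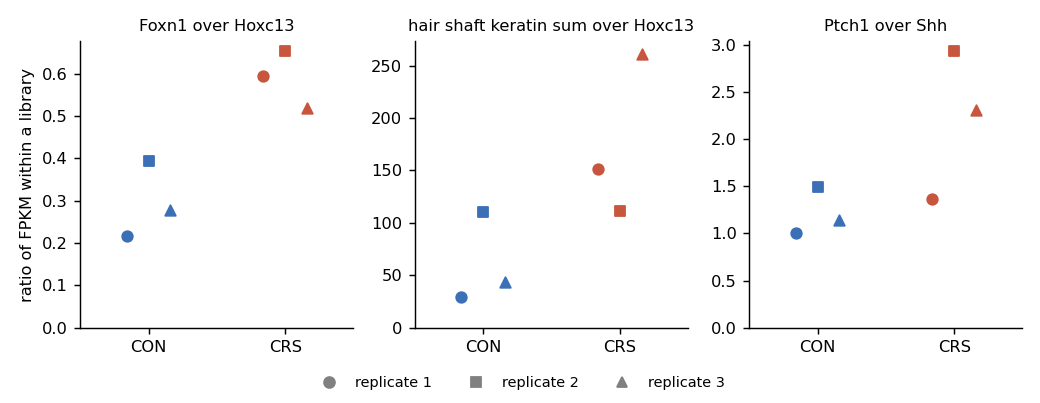
Ratios of FPKM within each library (vertical axes from 0): Foxn1 over Hoxc13, the summed FPKM of 12 hair shaft keratins over Hoxc13, and Ptch1 over Shh, with a marker shape for each replicate. Foxn1 over Hoxc13 is at most 0.394 in CON and at least 0.519 in CRS, the keratin ratio nearly meets at 110.6 and 111.2, and Ptch1 over Shh overlaps.

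The inner root sheath, the layer that Gata3 specifies, had all 9 tested genes above 0, with a median of 0.95 and 0 called. For 4 of the 9 the groups were apart with higher values in CRS (1.65% of all genes), and for 0 with lower values (5.19%). Trichohyalin, encoded by Tchh, stood at 1.11 (SE 0.85), Krt26 at 1.11 (SE 0.56) and Krt72 at 1.27 (SE 0.69) on the log2 scale. Without CON replicate 1 the list stood at 0.17, with 7 of 9 above 0, and without CRS replicate 2 as well at 0.12, with 5 of 9 above 0. The summed FPKM divided by Gata3 overlapped between the groups, at 46.5 to 372.9 in CON and 326.7 to 778.2 in CRS.

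Markers of the dermal papilla and of dividing cells had lower means in CRS. All 13 dermal papilla markers, genes of the mesenchymal cells that signal to the matrix, were under 0 with a median of -0.73, and 12 of 13 after median-ratio scaling. The median was -1.19 without CRS replicate 2. Wif1, a secreted Wnt inhibitor, averaged 22.6 ± 0.60 FPKM for CON and 10.2 ± 2.96 FPKM for CRS (log2 fold change -1.18, SE 0.31), and Rspo3, a Wnt agonist, at 3.41 ± 1.07 and 1.53 ± 0.11 FPKM (-1.07, SE 0.38). All 12 cell division genes were under 0 with a median of -0.84, as they were after median-ratio scaling and without CON replicate 1 and CRS replicate 2. Ube2c, a ubiquitin-conjugating enzyme of mitosis, was at -1.02 (SE 0.28) and Cdk1, the mitotic kinase, at -0.93 (SE 0.28). Every CRS library lay below every CON library for 4 of the 13 papilla markers and 7 of the 12 cell division genes (5.19% of all genes). The reverse held for 0 of them (1.65%). Again 0 genes of these lists passed limma's adjusted threshold. The part of follicle or dividing cell content in the values of the 10 genes was not tested.

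Summed skeletal muscle markers were 13769, 1508 and 2660 FPKM for CON and 455.9, 2971 and 814.1 FPKM for CRS. All 11 were under 0 with a median of -1.95, as were all 13 mitochondrially encoded genes with a median of -1.385, and 0 were called. Without CON replicate 1 these medians were -0.95 and -0.42. All 8 interfollicular epidermis markers were above 0 with a median of 0.44. The median lay between 0.27 without CON replicate 1, with 6 of 8 above 0, and 0.84 without CON replicate 3, and was -0.098 with array weights, with 3 of 8 above 0. Ivl stood at 0.98 (SE 0.48) and Krt1 at 0.70 (SE 0.56). Of 8 melanocyte markers 7 were under 0 with a median of -0.61, with Mlana at -0.92 (SE 0.38) and Dct at -0.62 (SE 0.28). Their part in the values of the 10 genes was not tested.

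For each of the 10 genes, the genes most like it were taken as those with the highest Pearson r of log2(FPKM + 0.1) over the 6 libraries, among 11670 other genes that averaged 1 FPKM or more and had an official symbol, leaving out pseudogenes and clone names. For Msx1 they were Jakmip2 (r 0.998) and Mrpl19 (0.995), with 83 genes over 0.95. Shh was closest to Rmnd1 (0.993) and Bfar (0.992), with 103 genes over 0.95, and Foxn1 to Abca12 (0.999) and Ell (0.997), with 95. Hoxc13 was closest to Pygo2 (0.998), Msx2 to Fzd1 (0.996), Dlx3 to Suco (0.992), Gata3 to Ttf1 (0.998), Bmp4 to Cars2 (0.995), Ovol1 to Tec (0.996) and Bmp2 to Atp6v1a (0.977). Spearman's rho of all of these was 0.943 or 1.000. They are the highest of many values over few libraries that share depth and scaling, and are given as a description.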

How the data were processed

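Skin RNA of CON and CRS mice, 3 each, was isolated with Trizol and made into libraries by an Illumina protocol, per the labels. The deposited values were FPKM, 1 file per library, and HISAT2 and the build GRCm39 are named in the submitters' processing notes. Strand, annotation and the program that counted are not given in the sources used here. Symbols came from GENCODE M21, on the older build GRCm38, which held 54079 of 54146 IDs. Multiplied by the union of a gene's exons, FPKM gave whole fragments, within 0.05, for 98.1% to 98.3% of values up to 100 fragments, and so the depth. For 9 of the 10 genes the fragments were whole, the exception being Ovol1.

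The filter kept genes averaging 0.1 FPKM or more, which were tested on log2(FPKM + 0.1), so fold changes understate those of low genes. CRS was compared with CON with limma 3.58.1 (R 4.3.3), whose two-sided p-values, with the variance trended on the mean, were Benjamini-Hochberg adjusted across 28389 genes. Single values were also compared by an exact permutation test of 3 against 3 (smallest p 0.1). Lists were described by counts and medians, with no set test. The fit was tested on simulated data with 50 genes changed at each size. It called 0% of log2 changes of 1, 14% of 2, 30% of 3 and 68% of 5, and 1 unchanged gene. P-values weigh the difference between groups against the spread between these libraries. In limma the variance of a gene also draws on that of all genes tested. FPKM carries no counting interval of its own. Named are the 10 genes, 12 readouts (Ptch1, Gli1, Hhip, Id1, Id2, Id3, Nog, Bmpr1a, Lef1, Foxq1, Krt35 and Tchh) and the 2 genes of lowest p in each list, except the T cell, skeletal muscle and mitochondrial lists. The genes, lists and tests were chosen with earlier results of these data known. The alternatives were 2 pseudocounts, 2 filters, 3 scalings, limma without trend, array weights, the block, voom on recovered fragments and left-out libraries. Tables and figures used Python 3.11.15, pandas 2.3.3 and matplotlib 3.10.9.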

Additional observations from a re-analysis of the deposited data

How the results depend on the processing

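Under 18 alternatives 0 genes were called higher and 0 lower, and 172 of 180 fold changes of the 10 genes kept their sign. The signs of Msx1, Msx2, Dlx3, Hoxc13, Gata3, Shh and Bmp4 turned in none of them. Msx2 and Dlx3 came close to 0, at -0.014 and -0.017 with median-ratio scaling, so their unturned sign does not show a stable difference. Without both CON replicate 1 and CRS replicate 2, Foxn1 turned to -0.070, Ovol1 to -0.12 and Bmp2 to -0.31. Bmp2 also turned to -0.048 as TPM, -0.043 when rescaled without mitochondrial and muscle genes, -0.081 with array weights, -0.23 without CON replicate 1 and -0.045 without CRS replicate 2, and the cause was not tested. The smallest adjusted p of the 10 genes was 0.0898, with array weights. Unadjusted limma p-values under 0.05 numbered 261 higher and 462 lower, and 1109 and 6525 with array weights. Median-ratio scaling moved the share of genes above 0 from 32.2% to 50.6%. A fit with the replicate block gave the same fold changes, -0.76 for Msx1, and 0 calls. Same-numbered libraries did not deviate together (r -0.295, -0.0428 and 0.0972). With each library left out in turn, Msx1 lay between -0.91 and -0.63, Shh between -1.61 and -0.76, Foxn1 between 0.17 and 0.63, Bmp2 between -0.23 and 0.26 and Ovol1 between 0.11 and 0.67. Of 288 list medians under alternatives 281 moved by less than the spread between libraries. That spread includes CON replicate 1 and CRS replicate 2, so the count cannot show that a median was stable. Among the 281 were the inner root sheath, from 0.95 to 0.17 without CON replicate 1, and the Bmp receptors, from -0.16 to 0.12 without CRS replicate 1. With 3 libraries a group the 95% interval of Shh spans from -2.46 to 0.016, so changes of the sizes seen here could not be resolved.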
